A study of Mus musculus with 44 samples.

Results

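The genes of the inhibin, activin and follistatin system were followed in primary mouse granulosa cells, the follicle cells that surround and nourish the oocyte, after exposure to the oocyte factor GDF9. The set was chosen by name and has 6 members, the subunit genes Inha, Inhba and Inhbb and the antagonist or related genes Fst, Fstl1 and Fstl3, out of 25865 genes with a value in every library, and all 6 were among the 12597 genes tested. Cells came from 3- to 4-week-old females of mixed C57BL/6J and 129S5/SvEvBrd background that had received 5 IU of PMSG, a gonadotropin that drives follicle growth, 46 h before the ovaries were taken. The cells of 8 mice were pooled, cultured for 4 days and given mouse GDF9 at 100 ng/mL or vehicle for 4 h. mRNA was sequenced in 2 GDF9 and 2 vehicle libraries, whose genotype is not in the labels and is Smad3PA/PA in the text of the study. CUT&RUN, which maps chromatin bound by an antibody, was run in 2 knock-in lines that carry an epitope tag in both the GDF9 and the vehicle arm. In Smad2HA/+ cells 1 allele of Smad2 ends in an HA tag, and the antibodies were against H3K27ac (histone H3 acetylated at lysine 27, found at active regulatory DNA), SMAD2, HA and SMAD3. In Smad3PA/PA cells both alleles of Smad3 begin with a PA tag, and the antibodies were against H3K27ac, SMAD2, PA and SMAD4. Each antibody had 2 peak lists per treatment, 32 in all.

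Inhibins and activins are dimers of the TGF-beta superfamily. Activins are dimers of beta subunits (from Inhba or Inhbb), bind type II and type I receptors and signal through SMAD2, SMAD3 and SMAD4, the same transcription factors that GDF9 uses. Inhibins join the alpha subunit (Inha) to a beta subunit, oppose activin at its receptors and reach the pituitary from growing follicles, where they lower FSH. Follistatin (Fst) and follistatin-like 3 (Fstl3) are secreted proteins that bind activin and keep it from its receptors, while follistatin-like 1 (Fstl1) is a more distant secreted relative with a follistatin domain.

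The RNA libraries held 8827825 to 11416005 reads in genes, as recovered from the deposited values, and replicates differed by more than counting noise, the chi-square per degree of freedom being 1.97 between the GDF9 and 1.31 between the vehicle libraries. Of 8 granulosa markers, 6 were tested. Foxl2, Fshr and Amhr2 were present in every library and not called, Hsd17b1 (an enzyme of estradiol synthesis) was called higher, with a log2 fold change of 0.29 (limma adjusted p = 0.000166), and Esr2 was called higher and Nr5a2 lower, with values given below, while Cyp19a1 and Amh were near 0, with 1.772 to 2.297 and 0.886 to 2.903 normalized counts. Summed markers of endothelium ranged from 20.14 to 34.83 with GDF9 and from 36.75 to 39.87 with vehicle. Those of macrophages ranged from 77.54 to 82.24 and from 59.72 to 71.77. Theca markers, mostly Star, summed to 7986 to 8253 and 7848 to 7849. Stroma markers, mostly Col1a1, summed to 1658 to 1677 and 1708 to 1731. Surface epithelium markers, mostly Upk3b, summed to 665.7 to 694.9 and 646.8 to 660.4. Oocyte markers summed to 28.2 to 46.44 and 35.6 to 40.76. No marker of another cell type was called, and Insl3 (theca) and Oosp1 (oocyte) were at 0 everywhere. The part of such cells in the results below was not tested. In the CUT&RUN data, 1 list stood apart: the SMAD2 list of vehicle replicate 2 in Smad3PA/PA cells held 23278 peaks, against 79018 to 81600 in the other 3 SMAD2 lists of that line. The H3K27ac peaks of Smad2HA/+ cells were broad, with medians of 18565 to 29257 bp per list against 2940 to 3288 bp in Smad3PA/PA cells.

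Inha was the most abundant of the 6 transcripts on a per-length scale and Fstl3 the least. Levels were compared as normalized counts per kb of RefSeq exon, with 2 libraries in each group. Inha, the alpha subunit, stood at 6356 ± 23.4 (SD) with GDF9 and 5966 ± 335 with vehicle. Fstl1 followed at 2467 ± 4.61 and 2470 ± 0.0313, then Inhba, the beta A subunit, at 1713 ± 34.4 and 1878 ± 18.2. Inhbb, the beta B subunit, was at 1162 ± 14.3 and 1104 ± 6.79. Fst was lower by far, at 298 ± 5.73 and 230 ± 2.45, and Fstl3 was at 140 ± 5.39 and 122 ± 15.4. No neighbours in this order overlapped in any of the 4 libraries. By mean normalized count without the length correction, Inha ranked 50 and Inhba 77 among the tested genes, so both belonged to the most abundant mRNAs of these cells, whereas Fst ranked 3215. The 2 remaining beta subunit genes, Inhbc and Inhbe, were listed at 0 in all 4 libraries.

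Follistatin was the single member called, and it was higher after 4 h of GDF9. A gene was called when its Benjamini-Hochberg adjusted p in limma was under 0.05 and its log2 fold change was beyond 0.18 in either direction, on log2 of the normalized count plus 1. Fst, on the minus strand of chromosome 13 (chr13:114452262-114458951 in mm10), had 863 and 839.8 normalized counts with GDF9 and 663.8 and 653.9 with vehicle. Both GDF9 libraries lay above both vehicle libraries by far more than the replicates differed. The means were 851.4 ± 16.4 and 658.9 ± 7.01 (SD, n = 2 each), an increase of 29.2%, and the log2 fold change was 0.37 (SE 0.06, 95% interval 0.25 to 0.49, limma adjusted p = 0.000147). Across all tested genes 2.44% were called higher and 0.707% lower, with a median log2 fold change of -0.01, and Fst ranked 93 by p. Because the libraries are bulk RNA, a change in the number of cells that express a gene and a change in RNA per cell cannot be told apart. The study calls its samples pooled biological replicates without saying whether each library had a pool of its own, so part of the spread behind the p-values may be technical.

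None of the subunit genes was called. Inhba had 10770 and 11080 normalized counts with GDF9 and 12060 and 11900 with vehicle, so that both GDF9 libraries were below both vehicle libraries. The difference was -8.85% (log2 fold change -0.13, SE 0.03, 95% interval -0.2 to -0.07). Its adjusted p of 0.0153 in limma was under 0.05, but the size was under the fold limit, so Inhba was not called, and the adjusted p was 0.336 without vehicle replicate 1 and 0.15 without vehicle replicate 2. Inha had 14810 and 14890 normalized counts with GDF9 and 13380 and 14490 with vehicle. The vehicle libraries differed more from each other than the closer of them did from GDF9, and the log2 fold change of 0.09 (SE 0.03, 95% interval 0.02 to 0.16, limma adjusted p = 0.157) did not pass. For Inhbb the values were 4904 and 4991 with GDF9 against 4680 and 4721 with vehicle, a log2 fold change of 0.07 (SE 0.04, 95% interval 0 to 0.15) that did not pass either (limma adjusted p = 0.335). The 2 libraries of each group were separate for all 3 subunit genes. They were separate for Fst, Fstl1 and Fstl3 as well, although the log2 fold change of Fstl1 was 0, so separation alone says little. The share of all tested genes with separate libraries was not counted.

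The remaining follistatin relatives were not called. Fstl1 was the steadiest member, with 8915 and 8892 normalized counts under GDF9 and 8916 and 8915 under vehicle, and a log2 fold change of 0 (SE 0.03, 95% interval -0.07 to 0.07, limma adjusted p = 0.988). Fstl3 had 281 and 266.1 with GDF9 and 217.1 and 259.6 with vehicle. Its log2 fold change of 0.2 was past the fold limit, but its SE of 0.1 was wide and the limma adjusted p was 0.33. One vehicle library set the size of the Fstl3 value, which was 0.07 without vehicle replicate 1 and 0.33 without vehicle replicate 2. At its 3' end Fstl3 overlaps Prss57 on the other strand, and Prss57 had 0 normalized counts in 3 libraries and 1.772 in the fourth.

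**Figure D1:**
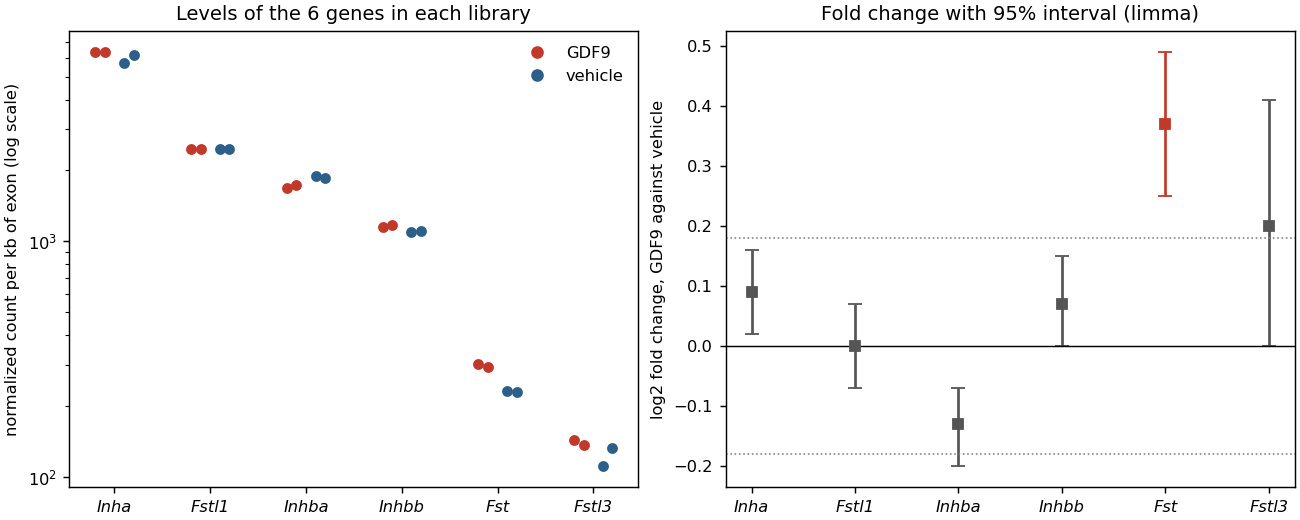
Left, normalized counts per kb of exon (log axis) of the 6 genes in each of the 2 GDF9 and 2 vehicle libraries, 1 point per library. Right, log2 fold change of GDF9 against vehicle with its 95% interval from limma, where the dotted lines mark the fold limit of 0.18 either way and red marks the gene called, Fst at 0.37.

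Since subunits pair with each other and follistatin binds activin, the levels per kb were also set against each other within each library, as descriptions with no test. Inha over Inhba was 3.75 and 3.67 with GDF9 and 3.03 and 3.33 with vehicle, so the ratio of alpha to beta A transcript was higher in both GDF9 libraries. Inhba over Inhbb averaged 1.47 with GDF9 and 1.7 with vehicle, again without overlap. Inha over Inhbb overlapped between the groups, at 5.5 and 5.44 against 5.21 and 5.59. The ratio that differed most was Fst over Inhba, at 0.179 and 0.169 with GDF9 and 0.123 in both vehicle libraries, 1.42 times as high on average. These ratios use mRNA and say nothing of protein.

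The 3 tested genes closest to Fst over the 4 libraries, by Euclidean distance of centred log2 values among 10662 other genes with a mean of at least 50, were Nipal1, Ap5z1 and Plekhg2. Nipal1 had 297.1 and 290.3 normalized counts with GDF9 and 229.7 and 222.4 with vehicle. All 3 were called higher, with log2 fold changes of 0.38, 0.37 and 0.35, which follows from how they were picked.

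Among the genes that carry or control activin and inhibin signals, 30 of 39 listed were tested, 1 was called higher and 1 lower, and the median log2 fold change was 0.02 against -0.01 over all genes. Over all tested genes 2.44% were called higher and 0.707% lower. None of the 6 tested receptors and co-receptors was called. Tgfbr3 (betaglycan, the inhibin co-receptor) had 128.9 and 104.5 normalized counts with GDF9 and 102.2 and 79.74 with vehicle (log2 fold change 0.36, SE 0.16, limma adjusted p = 0.252). Tgfbr3l, a betaglycan relative that binds inhibin B, had 15.11 and 15.48 against 9.188 and 4.43, a log2 fold change of 1.13 with an SE of 0.44 and a limma adjusted p of 0.18. The type II activin receptor Acvr2a was at 288 ± 21.4 and 303.2 ± 4.82 and the type I receptor Acvr1b at 188.5 ± 0.252 and 186.3 ± 13.4 (SD, n = 2 each). Neither of the GDF9 receptors Bmpr2 and Tgfbr1 was called, nor was any of Smad2, Smad3, Smad4 and the inhibitory Smad7, nor any of the 4 convertases, which cut the precursors of the family. Of the 9 transcription regulators known at inhibin or follistatin genes, the estrogen receptor Esr2 rose from 308.9 ± 8.03 to 387.6 ± 15.8 normalized counts (log2 fold change 0.33, SE 0.08, limma adjusted p = 0.0207). The nuclear receptor Nr5a2 (LRH-1) fell by 0.29 on the log2 scale, from 991.5 ± 12.5 to 813 ± 22.3 normalized counts (SE 0.06, limma adjusted p = 0.00189). The other 7, among them Nr5a1 (SF-1), Gata4, Foxl2 and Creb1, were not called. Of the other genes with follistatin domains 5 of 9 were tested and none was called. Sparc, an abundant matrix protein of that group, was at 14680 ± 21.5 and 14850 ± 286.

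H3K27ac covered the start sites of Inha and Inhba in every list. In Smad3PA/PA cells the start sites of both genes lay in peaks of all 4 H3K27ac lists, against 1 list each for Inhbb and Fst and none for Fstl1 and Fstl3. All 4 lists of that line held the start site of 55.7% of tested genes. The peak over the Inha start was 10.8 to 17.4 kb wide and its total signal lay between percentiles 98.0 and 99.2 of its list. The peak over the Inhba start was 7.8 to 26.7 kb wide and lay between percentiles 96.7 and 99.7. In Smad2HA/+ cells 5 members had a start site in all 4 H3K27ac lists, which held for 70.3% of tested genes, and Inhbb in 2. There the widths ran from 59.9 to 101.5 kb at Inha and from 34.1 to 37.1 kb at Inhba, and the Inha peak also covered its neighbour Obsl1 and covered Stk11ip wholly in 3 lists and in part in 1 list.

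Coverage by H3K27ac differed little between treatments at most members. In Smad3PA/PA cells peaks covered 26.27 and 25.92 kb of the window around Inha with GDF9 and 24.75 and 25.74 kb with vehicle, where the window is the gene with 20 kb on either side. Inha was the 1 member with more bases in both GDF9 lists (7.48% of tested genes). Inhbb was the 1 member with fewer (28.2% of tested genes), at 10.70 and 10.46 kb with GDF9 against 14 and 14.48 kb with vehicle. In Smad2HA/+ cells Inhba was the 1 member with more, at 36.83 and 37.09 kb against 34.47 and 34.10 kb (9.46% of tested genes), and no member had fewer (22.7%). Around Fst the values were 32.17 and 21.37 kb with GDF9 and 28.02 and 23.53 kb with vehicle in Smad2HA/+ cells. In Smad3PA/PA cells they were 6.45 and 4.91 kb against 8.89 and 4.91 kb, so the Fst lists overlapped in both lines. In the latter cells, overlapping peaks of both GDF9 replicates spanned the Fst start site (chr13:114456795-114460724), and no such pair did with vehicle. The start itself lay in the peak of GDF9 replicate 1 alone. The nearest peak was 36 bp away in GDF9 replicate 2, 45 bp in vehicle replicate 1 and 8030 bp in vehicle replicate 2. With 2 lists against 2, an exact two-sided permutation test cannot give a p below 0.333, so no test was made on peaks. The peak lists carry no read depth, and precision is limited by there being 2 lists per arm.

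Every member had at least 1 stretch covered by peaks of all 12 SMAD and tag lists of Smad2HA/+ cells, with GDF9 and with vehicle alike. These 12 lists are SMAD2, HA and SMAD3, in 2 replicates of each treatment. There were 17 such stretches in the windows of the 6 genes, of 9536 in the genome, and 64.0% of tested genes had one within 20 kb, so their presence is common. Inhba had 5, Inha and Fstl1 4 each, Fstl3 2, and Inhbb and Fst 1 each. All 17 also met H3K27ac peaks in all 4 lists of that line. Those lists covered 455.7 to 471.7 Mb of the genome, and the share of all 9536 stretches that met them was not counted. In Smad3PA/PA cells the Fstl3 stretch in exon 3 and intron 3 met 0 of 4 H3K27ac lists. The Fstl1 stretches 24.1 and 37.5 kb after the start site met 1 of 4 each.

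At Inha the start site itself lay in peaks of all 12 lists, which was so for 36.5% of tested genes. The stretch over it (chr1:75506560-75507412) ran from the space between Inha and the divergent gene Obsl1 into exon 1 of Inha. The 250 bases before the start site are shown because this promoter was the one member promoter inside such a stretch. They are read from RefSeq GRCm38.p6 at chr1:75506827-75507076 on the plus strand, 5′ to 3′, with matches to the motifs named below in capitals.
Inha promoter: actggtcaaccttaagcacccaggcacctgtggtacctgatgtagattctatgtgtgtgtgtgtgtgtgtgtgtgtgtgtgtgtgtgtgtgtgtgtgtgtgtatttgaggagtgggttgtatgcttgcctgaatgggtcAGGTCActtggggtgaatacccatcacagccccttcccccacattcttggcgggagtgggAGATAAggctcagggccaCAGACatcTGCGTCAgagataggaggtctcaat
Counted back from the start site, the nuclear receptor element AGGTCA, read by factors such as SF-1, begins at position -111. A GATA factor element, AGATAA, begins at -51. The element bound by SMAD3 and SMAD4, CAGAC, begins at -33, and a variant of the cAMP response element, TGCGTCA, begins at -25. Another stretch lay 10.0 kb downstream, between genes. The position met by most lists was 14.4 kb downstream, at the start of the next gene Stk11ip (chr1:75521465-75521559), with 17 of the 24 SMAD and tag lists of both lines.

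Inhba had the widest covered stretch, 2019 bp long, over intron 2, exon 3 and part of intron 3 (chr13:16013019-16015037), and its start site lay in 9 of 12 lists. Its core (chr13:16013969-16014491), centred 2.38 kb after the start site, was met by 16 of 24 lists, 12 from Smad2HA/+ and 4 from Smad3PA/PA cells. The 4 were SMAD2 in both GDF9 replicates, SMAD4 in GDF9 replicate 1 and SMAD4 in vehicle replicate 2. The central 300 bases of its intronic part (chr13:16014060-16014359, plus strand) are shown because it was the stretch inside a member gene that most lists shared.
Inhba intron 2: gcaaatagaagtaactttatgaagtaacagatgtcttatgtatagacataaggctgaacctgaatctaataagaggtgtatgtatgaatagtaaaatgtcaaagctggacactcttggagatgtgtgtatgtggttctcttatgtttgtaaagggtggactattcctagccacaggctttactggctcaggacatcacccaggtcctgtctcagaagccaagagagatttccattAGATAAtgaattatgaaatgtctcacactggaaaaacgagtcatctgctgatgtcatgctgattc
AGATAA was the 1 motif found in this window.

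Inhbb had its single common stretch 17.4 kb from its start site, beyond the end of the gene (chr1:119404482-119405197), while 7 of 12 lists covered the start site. The central 300 bases of the part met by 13 of 24 lists (chr1:119404540-119404839, plus strand) are printed because no other place near this subunit gene was shared by all 12.
Inhbb downstream: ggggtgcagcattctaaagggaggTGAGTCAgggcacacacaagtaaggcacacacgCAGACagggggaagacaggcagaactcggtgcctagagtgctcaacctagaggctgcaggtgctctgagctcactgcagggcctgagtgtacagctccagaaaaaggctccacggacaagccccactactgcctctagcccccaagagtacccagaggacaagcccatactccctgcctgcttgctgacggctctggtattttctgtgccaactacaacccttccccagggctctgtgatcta
They hold 1 CAGAC and 1 match to TGANTCA, the AP-1 element.

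Fst, the gene called higher, had its common stretch over intron 1, exon 2 and intron 2 (chr13:114456057-114457214), centred 2.32 kb after the start site, and 7 of 12 lists covered the start site itself. In the 12 lists, the strongest whole peak that met this stretch had a maximum signal between percentiles 53.5 and 83.1, with a median of 73.3. In Smad3PA/PA cells 2 of 12 lists met it, both SMAD4 with vehicle, and no GDF9 list did.

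In Fstl1 all 4 common stretches lay in intron 2, between 11.6 and 37.5 kb after the start site, and 6 of 12 lists covered the start. The first (chr16:37788283-37788954) holds the SMAD palindrome GTCTAGAC, found in 0.619% of such stretches, and its 300 bases about the centre (chr16:37788469-37788768, plus strand) are shown for that match, picked after it was seen.
Fstl1 intron 2: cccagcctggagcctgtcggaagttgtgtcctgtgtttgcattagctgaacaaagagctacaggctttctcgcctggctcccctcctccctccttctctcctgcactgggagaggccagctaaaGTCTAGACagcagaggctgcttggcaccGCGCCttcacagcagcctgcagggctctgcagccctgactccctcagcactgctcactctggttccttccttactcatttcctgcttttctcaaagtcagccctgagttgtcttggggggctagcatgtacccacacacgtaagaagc
The palindrome was not found in the stretches of the other members searched.

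In Fstl3 a stretch lay over exon 3 and intron 3 (chr10:79780174-79780901). The whole peaks that met it had the highest maximum signals of all 17, between percentiles 94.7 and 99.4 with a median of 98.8. The central 300 bases of its core (chr10:79780375-79780674, plus strand) are shown for that reason.
Fstl3 intron 3: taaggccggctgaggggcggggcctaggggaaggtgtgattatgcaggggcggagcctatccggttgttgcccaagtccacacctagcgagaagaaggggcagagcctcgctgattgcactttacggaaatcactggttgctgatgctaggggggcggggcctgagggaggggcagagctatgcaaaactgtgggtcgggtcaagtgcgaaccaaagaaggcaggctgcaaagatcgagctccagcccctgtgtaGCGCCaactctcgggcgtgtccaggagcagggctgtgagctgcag
They hold 1 match to GGCGC, the GC-rich SMAD element, and none to CAGAC. The other stretch, 9.77 kb before Fstl3, lay over the start of the neighbour Rnf126, with percentiles of 88.7 to 98.8, so it can belong to either gene. Rnf126 was not called, with 476.5 ± 13 normalized counts under GDF9 and 442.4 ± 7.84 under vehicle (log2 fold change 0.11, limma adjusted p = 0.523). Of the genes beside Inha, Obsl1 was called higher, from 5161 ± 95.5 to 5934 ± 94.6 normalized counts (log2 fold change 0.2, SE 0.04, limma adjusted p = 0.000594), and Stk11ip was not, with a log2 fold change of 0.19 and a limma adjusted p of 0.284.

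**Figure D2:**
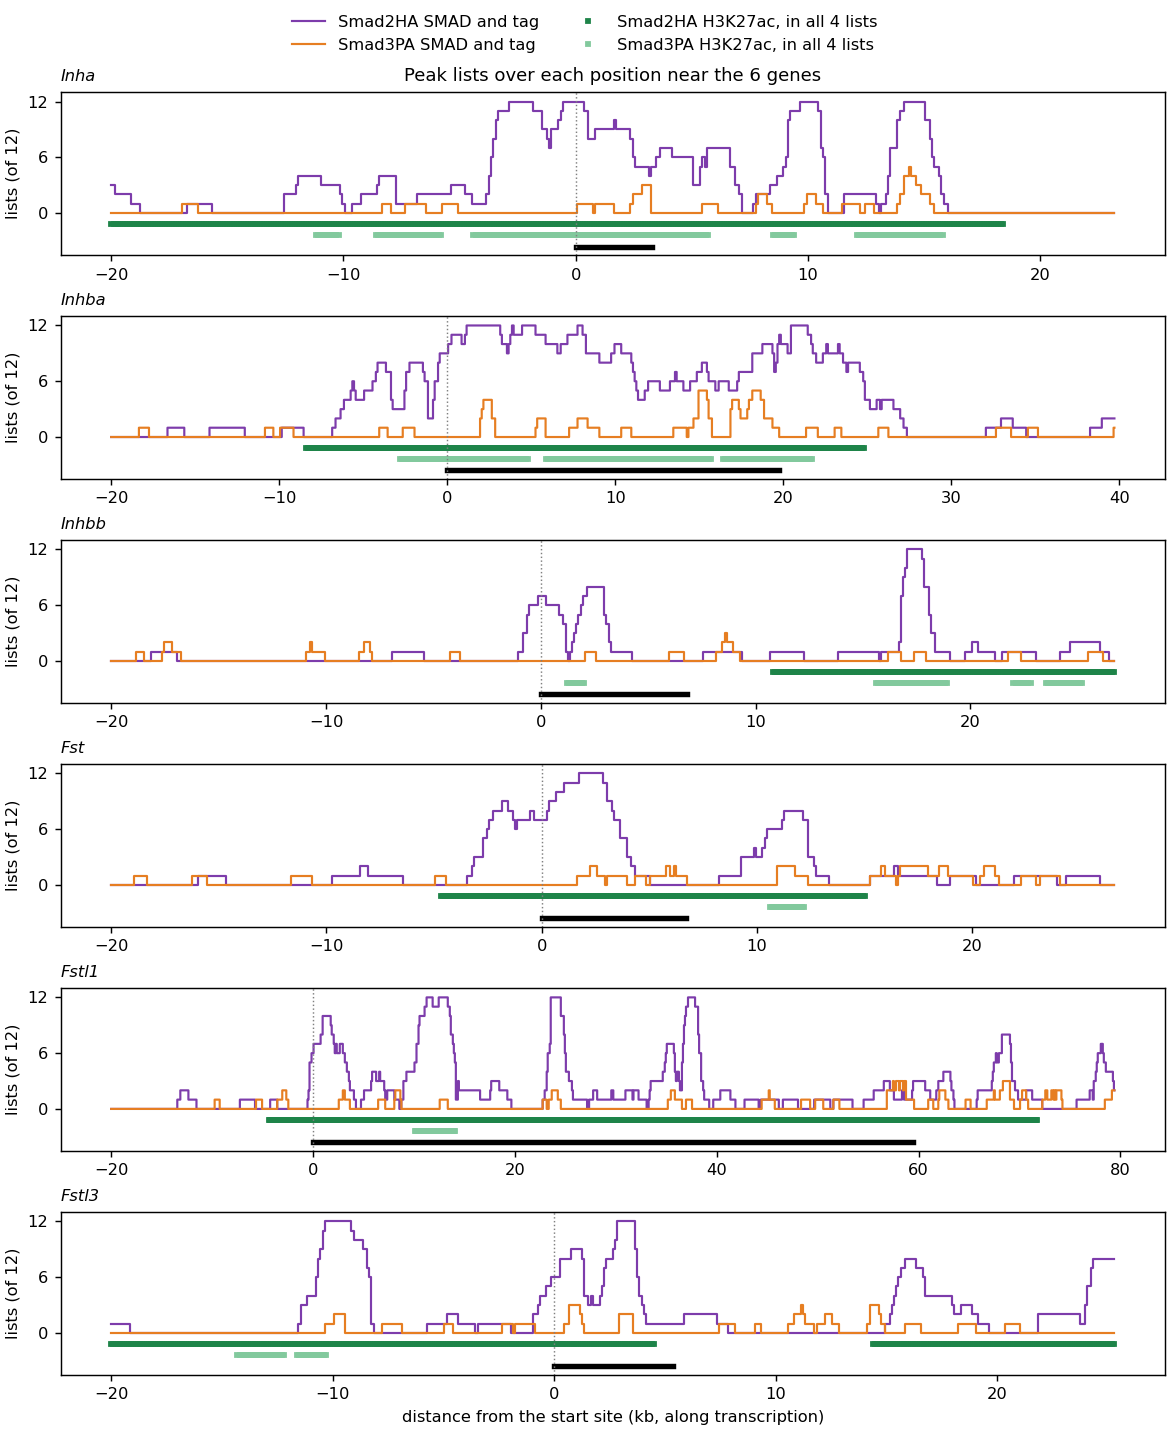
Number of SMAD and tag peak lists, of 12 per line, over each position of the 6 genes and the 20 kb beside them, by distance from the start site in kb along the direction of transcription. Green squares mark positions in all 4 H3K27ac lists of a line and the black bar marks the gene. The Smad2HA/+ line reaches 12 lists near every gene, while the Smad3PA/PA line stays at 5 or fewer.

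Motif matches were read against their share in all windows of the same length. Each of 8 motifs was searched on both strands. CAGAC was in 8 of the 16 common stretches searched beside Inha, Inhba, Inhbb, Fstl1 and Fstl3, taking 300 bases about each centre, and in 50.3% of all 9535 such windows. AGGTCA was in 4 of 16 (16.7% of all), AGATAA in 4 (10.8%), GGCGC in 3 (38.4%) and TGANTCA in 2 (16.8%). The Inhba and Inhbb windows printed above have other centres than the counted ones, so the matches shown there are not in these counts. TGCGTCA was in 1, the Inha start site (2.46%), the full cAMP element TGACGTCA in none (141 of all windows), and the palindrome GTCTAGAC in 1. The TGCGTCA and TGACGTCA elements share letters but a window was counted for each on its own. RefSeq promoter entries were matched for 5 members. In their 250 bases before the start, CAGAC was present at Fstl3 and at the downstream start of Inha, against 42.2% of all 32851 promoters. AGGTCA was present at the same genes, against 4607 of all 32851. GGCGC was present at Inhbb and Fstl3, against 10520 of all 32851, and the Inhba and Fstl1 promoters held none of the 8 motifs. A match is a run of letters and does not show that a factor binds there.

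In Smad3PA/PA cells SMAD peaks near the genes were small and seldom shared by replicates. Over the genome, median peak widths per list were 1264 to 1783 bp for SMAD2, HA and SMAD3 in Smad2HA/+ cells. They were 243 to 824 bp in the SMAD2, PA and SMAD4 lists of Smad3PA/PA cells, so small peaks were not particular to these genes. Each list of SMAD2, PA or SMAD4 in that line had 0 to 8 peaks in a window, covering at most 6.39 kb, whereas the SMAD2, HA and SMAD3 lists of Smad2HA/+ cells covered up to 31.96 kb. No member's start site was in any of the 12 lists of the line, and the share of tested genes for which this held was not counted. A region was counted where peaks of both replicates overlapped by at least 1 bp. For SMAD2, 5 members had such a region with GDF9 (25.3% of tested genes) and none with vehicle (3.37%), where the short vehicle list limits what can be shared. The 5 were Inha, with regions 10.2 and 14.4 kb from its start, Inhba over intron 2 and exon 3 at 2.41 kb, Inhbb at 8.55 kb, Fstl1 at 8.4 kb and Fstl3 at 11.1 kb. The Inha region at 14.4 kb held the start site of Stk11ip and the Fstl3 region held that of Prss57, so these can belong to either gene. Using replicate 1 alone, the windows of the 6 genes held 16 SMAD2 peaks with GDF9 and 16 with vehicle.

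For the PA tag on SMAD3, no member had a region with GDF9 (7.70% of tested genes), and Fst had one with vehicle (6.51%), 20.8 kb from its start. For SMAD4, Inhba and Fstl3 had a region with GDF9 (39.0% of tested genes), and Inhba, Fst and Fstl1 had one with vehicle (36.9%). The SMAD4 region at Fst with vehicle, at 2.31 kb (chr13:114455973-114457305), lay over the same stretch that all 12 Smad2HA/+ lists covered. Fstl1 had its SMAD4 region with vehicle over the common stretch at 24.1 kb in intron 2.

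Bases in SMAD and tag peaks were then compared list by list. Around Fst, SMAD4 peaks covered 2.30 and 0.50 kb with GDF9 and 3.19 and 3.07 kb with vehicle, and HA peaks covered 4.36 and 6.51 kb against 6.98 and 7.78 kb. The list with 0.50 kb, SMAD4 of GDF9 replicate 2, covered 36.1 Mb of the genome, less than the 48.4 to 60.9 Mb of the other 3 SMAD4 lists, and its part in the result was not tested. Without it the SMAD4 difference at Fst was -0.83 kb in place of -1.73 kb, with the remaining GDF9 list still below both vehicle lists. For both antibodies Fst and Fstl1 were the members with fewer bases in both GDF9 lists, against 18.2% of tested genes for SMAD4 and 15.9% for HA. Around Fstl1 the SMAD4 values were 1.44 and 1.96 kb with GDF9 and 3.38 and 6.39 kb with vehicle. Inha and Inhbb had more SMAD4 bases in both GDF9 lists (12.0% of tested genes). At Inha these were 1749 and 1682 bp with GDF9 and 1080 and 0 bp with vehicle. At Inhbb they were 597 and 660 bp against 0 and 576 bp, so the closest lists, 597 and 576 bp, were nearly equal. For HA, Inhbb alone had more bases (12.5%), at 5.32 and 5.84 kb against 3.92 and 4.37 kb.

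SMAD2 in the 2 lines ran in opposite directions at Inhba. In Smad2HA/+ cells its window held 12.41 and 13.05 kb of SMAD2 peaks with GDF9 and 19.43 and 22.78 kb with vehicle. Over the genome, the SMAD2 lists of that line covered 104.8 and 102.3 Mb with GDF9 and 113.1 and 111.0 Mb with vehicle. The part of this in the result was not tested. Inhba and Fstl3 were the members with fewer bases (33.8% of tested genes), and no member had more (7.79%). In Smad3PA/PA cells Inha and Inhba had more SMAD2 bases with GDF9 (28.1% of tested genes) and no member had fewer (1.62%). The Inhba values were 2653 and 3783 bp with GDF9 and 2649 and 0 bp with vehicle, so that vehicle replicate 1 and GDF9 replicate 1 were nearly equal and the short vehicle list held the difference. For SMAD3 in Smad2HA/+ cells, Fstl3 had fewer bases, at 7.11 and 7.56 kb against 8.38 and 8.29 kb (29.8% of tested genes), and no member had more (7.92%). For PA, Inhba had more bases with GDF9, at 1.64 and 3.24 kb against 1.37 and 0 kb (8.85%), and no member had fewer (18.3%). Every other pair of groups overlapped. The counts of members whose lists were separate, 0 to 2 of 6 per antibody and direction, are to be read against these shares.

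**Figure D3:**
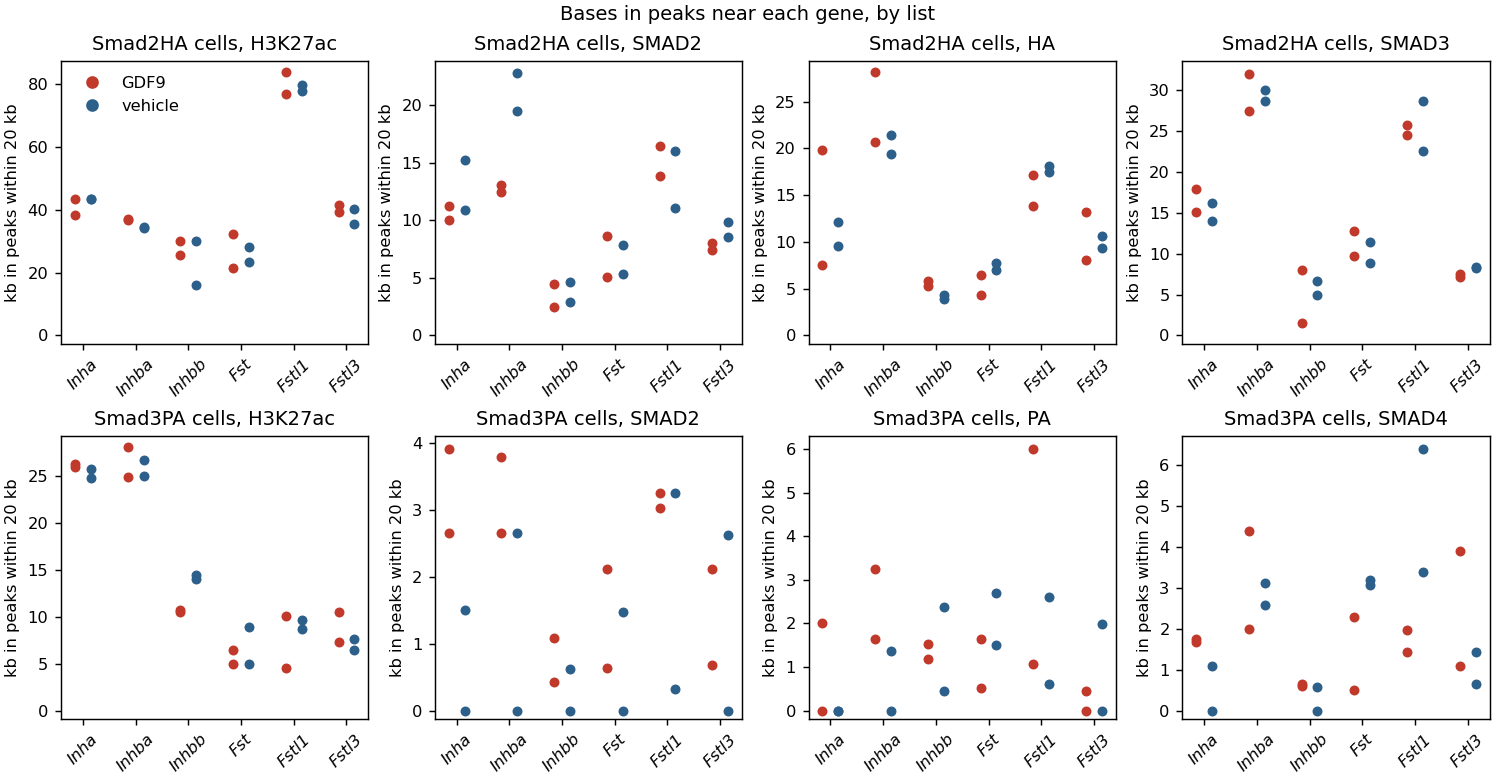
Kilobases in peaks within 20 kb of each of the 6 genes, 1 point per list, for the 4 antibodies of each line with GDF9 (red) and vehicle (blue). The vertical scales differ between panels. SMAD4 at Fst in Smad3PA/PA cells shows both GDF9 points (2.30 and 0.50 kb) below both vehicle points (3.19 and 3.07 kb), the lower of them from the SMAD4 list that covered the fewest bases of the genome.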

How the data were processed

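Transcript levels and chromatin profiles of primary mouse granulosa cells were analysed for 6 genes, which were chosen, with the gene lists and motifs, with earlier results of these data known. RNA values are counts normalized by the authors with DESeq2 1.48.2 size factors after STAR 2.7.11b alignment to mm10 and counting with featureCounts 2.1.1, and such a normalized signal is not a raw count. The strand setting was not given in the sources used here. Values were whole multiples of a step per library (100% of them within 0.05 of a whole number), so reads were recovered for the edgeR and DESeq2 alternatives. The fold changes and p-values that the authors tabulated for their own comparison, and 3 unnamed columns, were not used. limma 3.58.1 (R 4.3.3), with trend, was run on log2(value + 1) for genes with a mean of at least 10, with treatment as the only term, and calls needed a Benjamini-Hochberg adjusted p below 0.05 with a log2 fold change past 0.18. The test and the peak counts were tested on simulated data. Depth was 8827825 to 11416005 reads in genes.

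CUT&RUN peaks were called by the authors per sample with SEACR after Bowtie2 alignment and E. coli spike-in scaling, and each deposited list gives position, total signal and maximum signal (coverage). Whether IgG served as the control was not given in the sources used here, and the 8 IgG samples were not used here. Peaks within 20 kb of RefSeq gene spans (12498 of 12597 tested genes had one) were counted, with regions where both replicates overlapped by 1 bp or more. Maximum signals were ranked within each list as percentiles. A stretch was given the percentile of the strongest whole peak that met it, and that peak can reach beyond the stretch. Genes named are the members, listed genes and neighbours of the members, the 3 genes nearest to each called member, and, for regions, the stretch met by most lists. Nothing in the sources used here says that equal replicate numbers mark a shared pool, so they were not used to pair samples. Alternatives were other pseudocounts, filters, scalings, tests, windows and overlaps, and leaving out each replicate.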

Additional observations from a re-analysis of the deposited data

Results flagged for a closer look

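SMAD2 peaks around Inhba drew attention because both GDF9 lists lay below both vehicle lists in one line and above them in the other, a difference that was not tested. In Smad2HA/+ cells the mean of the GDF9 lists minus that of the vehicle lists was -8.38 kb (12.73 against 21.1 kb), and in Smad3PA/PA cells it was 1.89 kb (3.22 against 1.32 kb). The same held for 10.2% of tested genes. In Smad2HA/+ cells both GDF9 lists of SMAD2 also covered fewer bases of the whole genome than both vehicle lists. The GDF9 replicate 1 and vehicle replicate 1 lists of Smad3PA/PA cells were nearly equal (2653 and 2649 bp), and the short SMAD2 list of vehicle replicate 2 has no peak in this window. Without that list the Smad3PA/PA difference was 0.57 kb.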

How the results depend on the processing

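All 78 fold changes of the 6 genes under alternatives to the fit kept their direction (values of Fstl1 lay between -0.01 and 0) and their call, with Fst between 0.35 and 0.39 and called in 13 of 13 (adjusted p 2.2e-07 to 0.0172). The adjusted p of Inhba, never called, was under 0.05 in 9 of 13, and that of Inha in 3 of 13. In all genes, 396 calls became 187 without a filter on low values, 128 with DESeq2, and 215 to 583 when 1 library was left out. Leaving out vehicle replicate 1 gave the 215, and a lone library is then assumed to vary like the others. With the replicate block 535 genes were called, among them 1 member, and the deviations of same-numbered replicates had a correlation of 0.01, so the numbers may only name libraries. The replicate block moved no call of a member.

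For peaks, GDF9 minus vehicle in regions near the 6 genes moved in Smad3PA/PA H3K27ac from 4 to 2 in the top 50% of each list by maximum signal, 6 where each peak had to share 50% of its length, 2 within 5 kb, and 1 to 2 with 1 replicate alone. Smad2HA/+ H3K27ac moved from 0 to 3 in the top 50% and to 1 within 5 kb. Single replicates gave 0 to 20 for Smad3PA/PA SMAD2 (6 for both), -1 to 3 for SMAD4 (-2 for both) and -1 to 0 for Smad2HA/+ HA (-5 for both). Values from 1 replicate alone count all peaks of its lists, whereas those for both count only regions that replicates share. The 20 came from replicate 2 (21 peaks with GDF9 and 1 with vehicle), whose vehicle list is the short one. Smad2HA/+ SMAD2 turned from -1 to 1 where each peak had to share 50% of its length and to 4 to 5 with 1 replicate alone. The cause was not tested. The other 27 of 40 values stayed within the replicate spread. The peak lists give no depth, and with 2 lists per arm no exact permutation p can fall below 0.333. After the data were seen, Inhba in SMAD2 peaks and Fst in SMAD4 peaks of Smad3PA/PA cells were also computed without 1 list each (vehicle replicate 2 and GDF9 replicate 2), which gave 0.57 and -0.83 kb for GDF9 minus vehicle in place of 1.89 and -1.73 kb.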
